A study of Mus musculus with 3 samples.

Results

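Ceramidases and the enzymes that make or break down sphingomyelin set how much ceramide a cell holds. The 10 genes described here were Asah1, Asah2, Acer2 and Acer3 (ceramidases), Smpd1, Smpd2 and Smpd4 (sphingomyelinases), Sgms1 and Sgms2 (sphingomyelin synthases) and Samd8 (a relative of the synthases). They were chosen by gene name from a table of 55487 genes measured by RNA sequencing, and each name matched 1 gene. All 10 passed the filter on low values, at least 10 estimated counts in at least 1 library, as did 17655 genes in all. The samples were embryoid bodies (EBs), aggregates in which mouse ES cells start to differentiate, made from the wild-type ES cell line E14K in medium without LIF. C2 ceramide, a cell-permeable ceramide with a short acyl chain, was given at 30 μM from the start of day 3, and those EBs were collected on day 4 (C2 ceramide day 4). Control EBs received the vehicle DMSO and were collected on day 4 (DMSO day 4) or on day 3 (DMSO day 3). Each condition had 1 library from 1 cell line. There were no replicates, so no p-value could be computed, and every difference is described by its size.

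Ceramide is a sphingoid base joined to a fatty acid. Ceramidases cut off the fatty acid and leave sphingosine, which kinases can turn into sphingosine-1-phosphate. Sphingomyelinases release ceramide from sphingomyelin, a major lipid of the plasma membrane. Sphingomyelin synthases work the other way, moving a phosphocholine group from phosphatidylcholine onto ceramide. The enzymes differ in where they act: the acid forms work in lysosomes, and the others in the ER, the Golgi or the plasma membrane.

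The libraries held 35290094 estimated counts (C2 ceramide day 4), 35078820 (DMSO day 4) and 33619197 (DMSO day 3), and between 13421 and 13683 genes reached 1 TPM (a level corrected for transcript length and library size). The RNA of cell type markers differed between the libraries. The 12 markers of the primitive streak and mesoderm summed to 75.4 TPM with C2 ceramide, against 1041 TPM on DMSO day 4 and 94.5 TPM on DMSO day 3. All 12 were over 2-fold lower with C2 ceramide than on DMSO day 4, where 12.3% of all genes tested were. The 10 endoderm markers summed to 13.9, 741 and 13.3 TPM in the same order. The 10 pluripotency markers summed to 2432, 1492 and 2733 TPM, and the 10 neuroectoderm markers to 173, 172 and 194 TPM. Otx2 held most of the neuroectoderm sum, at 100, 145 and 160 TPM. Of the 10 neuroectoderm markers, 8 were over 2-fold higher with C2 ceramide than on DMSO day 4 (9.97% of all genes tested). Against DMSO day 3, 4 were (11.2% of all genes tested). Msgn1 was listed at 0 on DMSO day 3, and Sox1 at 0 on DMSO day 4 and DMSO day 3. In EBs sequenced in bulk, fewer cells of a type and less RNA per cell cannot be told apart, and the part of cell type in the values below was not tested.

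The question for the 10 genes was whether EBs given more ceramide held more or less RNA for the enzymes that remove or release it. Most of them stayed within 2-fold, as did most of all genes tested, so the counts of calls below are no result about the 10 genes. In C2 ceramide day 4 over DMSO day 4, 1 of the 10 had a TPM ratio above 2, where 9.97% of the 17655 genes did, and 0 had a ratio below 0.5, where 12.3% did (22.3% in either direction). The 1 gene was Asah2, whose ratio rested on 4 counts with C2 ceramide and 0 on DMSO day 4. The median log2 ratio of the 10 genes was 0.15, or 0.11 over the 9 genes above 0 in both libraries, beside -0.03 for all genes tested. In DMSO day 4 over DMSO day 3, 0 of the 10 were higher (12.8% of all genes) and 2 were lower (9.45% of all genes, 22.3% in either direction), Asah2 and Sgms2, with a median log2 ratio of 0.01 against 0.05 for all genes. Asah2 reached 10 counts only on DMSO day 3, where it had 13, so the filter itself kept it in through the library where it was highest, and its calls against DMSO day 3 are no result about the 10 genes. In C2 ceramide day 4 over DMSO day 3, 0 were higher (11.2% of all genes) and the same 2 were lower (9.39% of all genes, 20.6% in either direction), with a median of -0.05 against 0.03. The 3 comparisons share libraries and do not count as separate evidence.

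**Figure D1:**
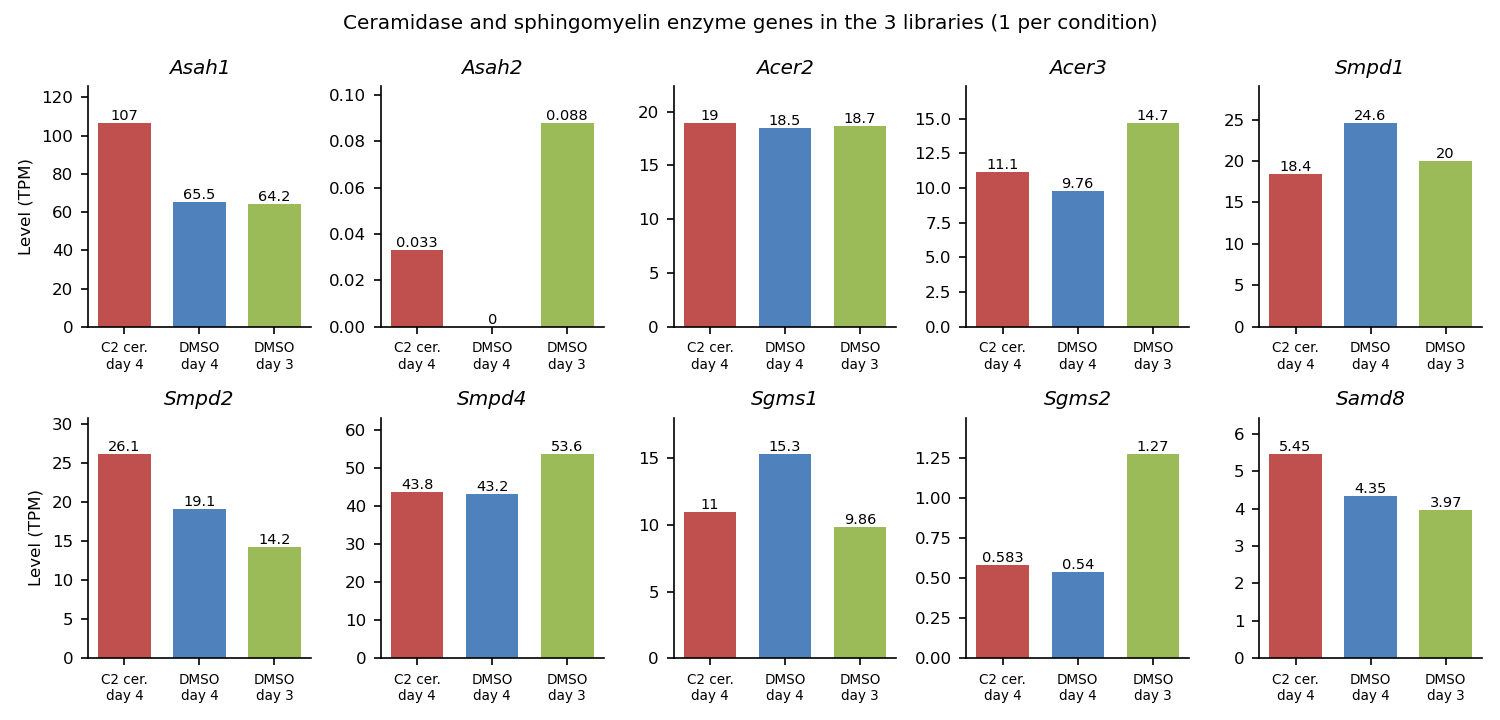
Level (TPM, axis from 0 and separate for each gene) of the 10 genes in the 3 libraries, 1 bar per library. Asah1 stands at 107 TPM with C2 ceramide, against 65.5 and 64.2 TPM in the DMSO libraries, whereas Smpd1 and Sgms1 are highest on DMSO day 4.

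The levels spanned a wide range, and their order was partly the same in every library. Asah1 was the highest and Smpd4 the next in all 3 libraries, and Samd8, Sgms2 and Asah2 were always the lowest, in that order. The 5 genes between them, Smpd1, Smpd2, Acer2, Acer3 and Sgms1, lay between 9.76 and 26.1 TPM and changed places. The 4 ceramidases summed to 137 TPM with C2 ceramide, against 93.8 TPM on DMSO day 4 and 97.7 TPM on DMSO day 3. The 3 sphingomyelinases summed to 88.3, 86.8 and 87.9 TPM in the same order, and the 2 sphingomyelin synthases to 11.6, 15.8 and 11.1 TPM. The sum of the ceramidases was thus highest with C2 ceramide, that of the sphingomyelinases was nearly flat, and that of the synthases was highest on DMSO day 4. A sum can hide members that go opposite ways, as the sphingomyelinases did.

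Asah1 encodes acid ceramidase, the lysosomal enzyme that the study also blocked with an inhibitor. The gene lies at chr8:41340197-41374773 on the minus strand (GRCm38, the build of all gene positions here). It had 107 TPM with C2 ceramide (5201 counts), against 65.5 TPM on DMSO day 4 (3363 counts) and 64.2 TPM on DMSO day 3 (3054 counts). The C2 ceramide library stood apart from the DMSO libraries, which were close to each other. C2 ceramide day 4 over DMSO day 4 gave a TPM ratio of 1.63, or 0.70 on the log2 scale (95% counting interval 0.64 to 0.77), which is under the 2-fold threshold. Intervals here cover the counting error of the gene's counts only and are shifted to the TPM ratio. They leave out the spread between cultures and the error of splitting reads among transcripts, and PCR copies are not independent molecules. Of all genes tested, 85.8% had a smaller ratio, so 2513 genes had a larger one. DMSO day 4 over DMSO day 3 gave 0.03 (-0.04 to 0.10), and C2 ceramide day 4 over DMSO day 3 gave 0.73 (0.67 to 0.80). Among the genes of this group with more than 13 counts, Asah1 had the largest ratio in C2 ceramide day 4 over DMSO day 4. It made up 78.0% of the summed TPM of the 4 ceramidases with C2 ceramide, 69.9% on DMSO day 4 and 65.7% on DMSO day 3.

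The transcripts of Asah1 moved in the same direction in this comparison. The table of transcripts splits each gene's reads among its annotated forms, and that split is an estimate, so no counting interval is given for a transcript. The main coding transcript (ENSMUST00000034000.14, 394 residues) had 45.0 TPM with C2 ceramide, against 31.6 TPM on DMSO day 4 and 28.0 TPM on DMSO day 3. A transcript annotated for nonsense-mediated decay, the pathway that destroys RNAs with an early stop codon, had 23.2, 11.5 and 14.6 TPM in the same order. The transcripts annotated as keeping an intron summed to 38.2, 22.4 and 21.6 TPM. Coding transcripts therefore held 42.4% of the TPM of Asah1 with C2 ceramide, 48.2% on DMSO day 4 and 43.7% on DMSO day 3. With coding transcripts alone, C2 ceramide day 4 over DMSO day 4 gave a log2 ratio of 0.52.

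The other ceramidases did not share the pattern of Asah1. Asah2 (chr19:31982597-32108211, minus strand) encodes the neutral ceramidase, best known from the gut. It was near the limit of detection, at 0.033 TPM with C2 ceramide (4 counts), 0 TPM on DMSO day 4 (0 counts) and 0.088 TPM on DMSO day 3 (13 counts). With the 0 counts of DMSO day 4 set to a floor of 3, the level on DMSO day 4 was 4.52-fold lower than on DMSO day 3. With C2 ceramide it was 1.32-fold higher than on DMSO day 4. These folds leave out the counting error of the 13 and 4 counts and are not lower bounds. C2 ceramide day 4 over DMSO day 3 gave a log2 ratio of -1.42 with an interval of -3.49 to 0.28, which includes 0. Both calls of Asah2 against DMSO day 3 and the call against DMSO day 4 thus rested on 13 counts or fewer.

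Acer2 encodes the Golgi alkaline ceramidase and lies at chr4:86874396-86934822 on the plus strand. Its gene level was flat, at 19.0 TPM with C2 ceramide (1219 counts), 18.5 TPM on DMSO day 4 (1174 counts) and 18.7 TPM on DMSO day 3 (1167 counts). C2 ceramide day 4 over DMSO day 4 gave a log2 ratio of 0.03 (-0.08 to 0.15). Almost none of this signal was assigned to the coding transcript. The transcript that encodes the enzyme (275 residues) had 0.295 TPM with C2 ceramide, 0.239 TPM on DMSO day 4 and 0.118 TPM on DMSO day 3, from 36.3, 29.1 and 14.1 estimated counts. Transcripts without an annotated reading frame held 98.4%, 98.7% and 99.4% of the gene's TPM in the same order. The largest of them (ENSMUST00000135874.1, chr4:86930691-86934822) starts 9816 bases beyond the end of the coding transcript. It took 64.1% of the TPM with C2 ceramide, 64.5% on DMSO day 4 and 66.3% on DMSO day 3. The other, ENSMUST00000128712.1, starts close to the coding transcript and had 6.53 TPM with C2 ceramide, 6.33 TPM on DMSO day 4 and 6.18 TPM on DMSO day 3. Most of the flat gene value was therefore assigned to RNA that starts beyond the enzyme's own exons. For the coding transcript alone, the log2 ratio was 0.30 in C2 ceramide day 4 over DMSO day 4, 1.02 in DMSO day 4 over DMSO day 3 and 1.32 in C2 ceramide day 4 over DMSO day 3.

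Acer3 encodes an alkaline ceramidase of the ER and Golgi that prefers ceramides with unsaturated fatty acids. At chr7:98206389-98321208 on the minus strand, it had 11.1 TPM with C2 ceramide (514 counts), against 9.76 TPM on DMSO day 4 (479 counts) and 14.7 TPM on DMSO day 3 (624 counts). DMSO day 3 was the highest library. The log2 ratio was 0.19 (0.01 to 0.37) in C2 ceramide day 4 over DMSO day 4, and 0.09 (-0.09 to 0.28) from counts divided by the library total, which are not corrected for transcript length (library-scaled counts). DMSO day 4 over DMSO day 3 gave -0.59 (-0.77 to -0.42). Part of the high value on DMSO day 3 came from a short transcript of 441 bases annotated for nonsense-mediated decay, to which 11.9 counts and 2.49 TPM were assigned on DMSO day 3 and 0 in each day 4 library.

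The coding transcripts of Acer3 went the other way from the gene in C2 ceramide day 4 over DMSO day 4. They summed to 2.71 TPM with C2 ceramide, 3.10 TPM on DMSO day 4 and 4.31 TPM on DMSO day 3, a log2 ratio of -0.19. A transcript annotated for nonsense-mediated decay (ENSMUST00000151258.7) held most of the gene's level, at 8.43 TPM with C2 ceramide, 6.66 TPM on DMSO day 4 and 7.90 TPM on DMSO day 3. It begins 10 bases from the start of the transcript that encodes the full 267 residues. That transcript was at 0.068, 0.024 and 0.034 TPM, from 20.5, 7.09 and 10.1 counts. Unlike the coding sum, it was higher with C2 ceramide than on DMSO day 4. The other coding transcript (ENSMUST00000120520.7, 225 residues) starts further upstream and had 2.64, 3.07 and 4.28 TPM. The 2 start regions are shown because the transcripts that went opposite ways begin at different ones. The sequences come from RefSeq (GRCm38.p6), run 5′ to 3′ on the strand of the gene from 250 bases before to 50 bases after the start, and carry in capitals each match to a GC box, GGGCGG, read on both strands.
Acer3 downstream start, chr7:98309493-98309792, minus strand: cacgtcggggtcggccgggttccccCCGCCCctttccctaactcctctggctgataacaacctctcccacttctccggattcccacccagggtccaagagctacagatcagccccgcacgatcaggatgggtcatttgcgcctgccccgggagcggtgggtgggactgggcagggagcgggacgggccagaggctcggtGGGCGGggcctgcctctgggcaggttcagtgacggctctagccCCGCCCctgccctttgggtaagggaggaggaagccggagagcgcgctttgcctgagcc
Acer3 upstream start, chr7:98321159-98321458, minus strand: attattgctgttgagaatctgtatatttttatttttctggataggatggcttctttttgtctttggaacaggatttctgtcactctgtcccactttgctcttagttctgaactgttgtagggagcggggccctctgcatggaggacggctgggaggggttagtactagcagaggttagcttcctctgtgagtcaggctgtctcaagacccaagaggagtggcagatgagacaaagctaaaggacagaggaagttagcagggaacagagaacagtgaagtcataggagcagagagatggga
The downstream window held 3 GC boxes, 20 CpG dinucleotides and 68.0% G and C, and the upstream one 0 GC boxes, 2 CpG dinucleotides and 47.0% G and C. Over the 32851 promoter windows of the same length, the median was 7 CpG dinucleotides and 52.7% G and C, and 35.7% held a GC box. The downstream window thus was rich in CpG and the upstream window poor, and a match to a motif is a description and not a binding site.

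**Figure D2:**
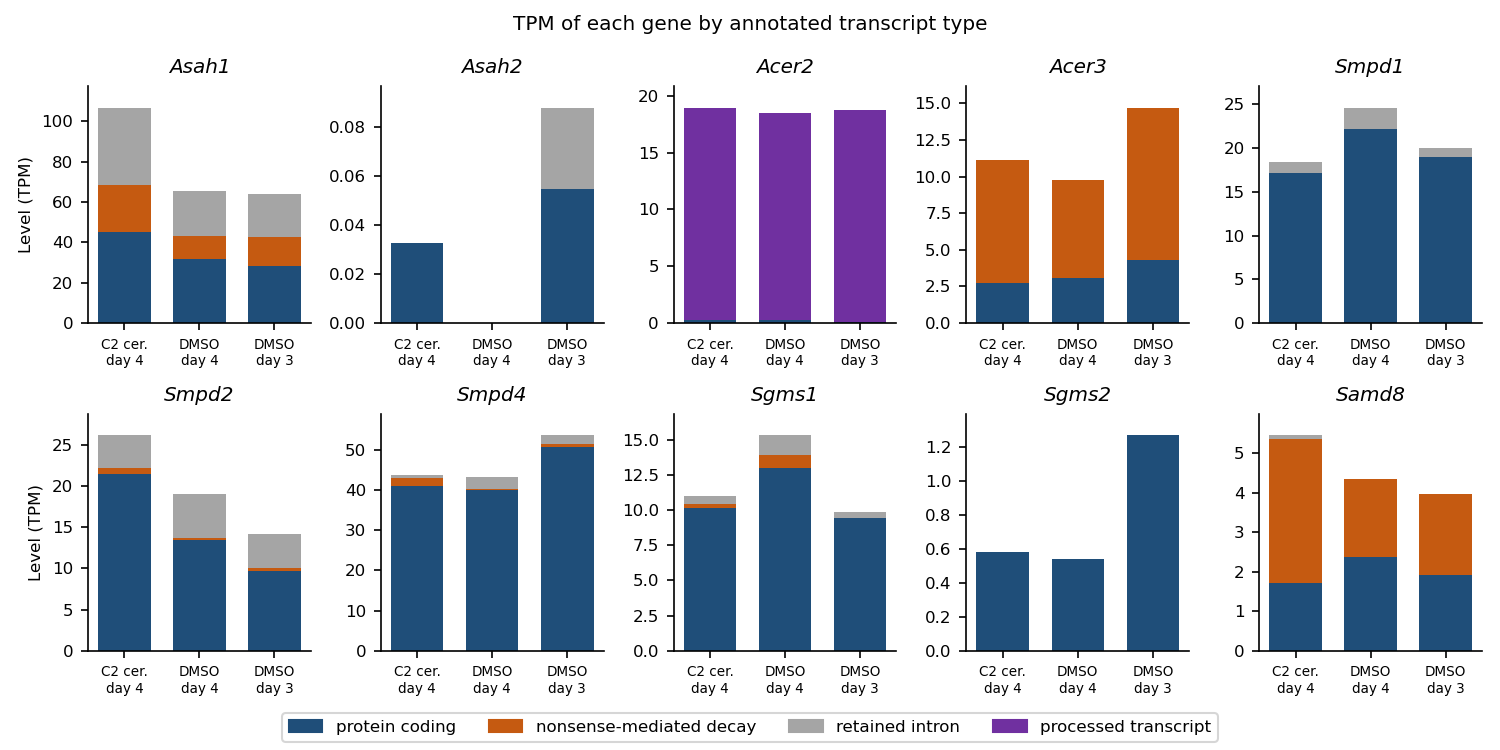
Level (TPM, separate axis for each gene) of the 10 genes by annotated transcript type, stacked, for C2 ceramide day 4, DMSO day 4 and DMSO day 3. Acer2 is almost wholly processed transcript (98.4% to 99.4%), and Acer3 is mostly nonsense-mediated decay (68.3% to 75.6%), whereas Smpd1, Smpd4 and Sgms1 are 85.0% or more coding.

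The 3 sphingomyelinases had nearly the same sum in each library but a different makeup. Smpd4 held 49.6% of the sum with C2 ceramide, 49.7% on DMSO day 4 and 61.1% on DMSO day 3. Smpd2 held 29.6%, 21.9% and 16.2% in the same order, and Smpd1 20.9%, 28.3% and 22.8%. Smpd2 was thus the second of the 3 with C2 ceramide, and Smpd1 was second in both DMSO libraries.

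Smpd1 encodes acid sphingomyelinase, which works in lysosomes and is also secreted. The gene (chr7:105554360-105558389, plus strand) had 18.4 TPM with C2 ceramide (1211 counts), against 24.6 TPM on DMSO day 4 (1557 counts) and 19.997 TPM on DMSO day 3 (1286 counts). DMSO day 4 was the highest library, and the C2 ceramide level was the lowest of the 3. The log2 ratio was -0.42 (-0.53 to -0.31) in C2 ceramide day 4 over DMSO day 4 and 0.30 (0.19 to 0.41) in DMSO day 4 over DMSO day 3. For C2 ceramide day 4 over DMSO day 3 it was -0.12 (-0.23 to -0.0047). The transcript that encodes the 627 residues of the enzyme held between 90.0% and 94.6% of the level and gave -0.37 in the first comparison. An intron-retaining transcript of 540 bases (ENSMUST00000211307.1) had 1.22 TPM with C2 ceramide, 2.36 TPM on DMSO day 4 and 1.03 TPM on DMSO day 3. Acid ceramidase and acid sphingomyelinase, both lysosomal enzymes of the ceramide pathway, thus had log2 ratios of opposite sign with C2 ceramide, 0.70 and -0.42.

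Smpd2 encodes a neutral sphingomyelinase that needs magnesium. Its level was ordered by condition, at 26.1 TPM with C2 ceramide (1017 counts), 19.1 TPM on DMSO day 4 (697 counts) and 14.2 TPM on DMSO day 3 (540 counts). None of its 3 ratios had an interval that included 0. The log2 ratio was 0.46 (0.31 to 0.60) in C2 ceramide day 4 over DMSO day 4, 0.42 (0.26 to 0.59) in DMSO day 4 over DMSO day 3, and 0.88 (0.73 to 1.03) in C2 ceramide day 4 over DMSO day 3. The gene lies at chr10:41485642-41490369 on the minus strand and shares 1391 bases with Mical1 on the other strand, which had 1290, 1484 and 973 counts in the same order. Whether the counting used strand is not given in the sources used here, so reads of the shared bases cannot be assigned with certainty. The coding transcript of Smpd2 (ENSMUST00000019965.12, 419 residues) ends before the bases shared with Mical1. It had 21.4 TPM with C2 ceramide, 13.4 TPM on DMSO day 4 and 9.72 TPM on DMSO day 3, and its log2 ratios were 0.68, 0.46 and 1.14 in the 3 comparisons. In C2 ceramide day 4 over DMSO day 3 this transcript, at 1.14, was past the 2-fold threshold, and the gene as a whole, at 0.88, was not. The transcripts that keep an intron had 4.01, 5.38 and 4.24 TPM and did not share this order. The largest of these, ENSMUST00000147738.1, had 2.73 TPM with C2 ceramide, 3.25 TPM on DMSO day 4 and 2.66 TPM on DMSO day 3, and ENSMUST00000132170.7 had 0.195, 1.53 and 0.274 TPM.

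The start region of the coding transcript of Smpd2 is shown because this transcript carried the gene's differences and the window holds an E-box, CACGTG. Capitals mark the E-box and each GC box, GGGCGG, on both strands.
Smpd2 start, chr10:41490291-41490590, minus strand: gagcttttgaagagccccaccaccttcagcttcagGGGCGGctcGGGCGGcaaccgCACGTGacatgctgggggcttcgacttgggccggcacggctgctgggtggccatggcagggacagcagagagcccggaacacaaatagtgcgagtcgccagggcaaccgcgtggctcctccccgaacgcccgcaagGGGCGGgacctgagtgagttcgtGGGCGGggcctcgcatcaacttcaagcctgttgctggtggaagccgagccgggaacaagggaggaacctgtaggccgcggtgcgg
The window held 1 E-box, 4 GC boxes, 25 CpG dinucleotides and 67.0% G and C. An E-box was present in 7.15% of the 32851 windows, and in 2 of the 19 windows found for 9 of the 10 genes. The other was 1 of 6 start windows listed for Sgms2. GC boxes were present in 11 of the 19 windows. None of these matches is a measure of binding.

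Smpd4 encodes a neutral sphingomyelinase of the ER and nuclear envelope. It lies at chr16:17619354-17644828 on the plus strand and was the second most abundant of the 10 genes, at 43.8 TPM with C2 ceramide (3419 counts), 43.2 TPM on DMSO day 4 (3686 counts) and 53.65 TPM on DMSO day 3 (4284 counts). Both day 4 libraries were close to each other and below DMSO day 3. DMSO day 4 over DMSO day 3 gave -0.31 (-0.38 to -0.25). C2 ceramide day 4 over DMSO day 4 gave 0.02 (-0.05 to 0.09) from TPM but -0.12 (-0.18 to -0.05) from library-scaled counts, so the sign of this small difference depended on the scale. Of its 18 transcripts above 0, the 3 largest coding ones did not move together. ENSMUST00000165363.9 had 10.8 TPM with C2 ceramide, 13.6 TPM on DMSO day 4 and 18.2 TPM on DMSO day 3. ENSMUST00000163476.9 had 8.46, 10.8 and 10.7 TPM, and ENSMUST00000232021.1 had 11.4, 9.82 and 12.0 TPM, in the same order. Of the 9 others that reached 1 TPM in a library, ENSMUST00000231792.1 had 3.04 TPM with C2 ceramide, 0.0986 TPM on DMSO day 4 and 1.49 TPM on DMSO day 3, and ENSMUST00000232442.1, of 472 bases, had 3.51, 0 and 1.61 TPM from 20.8, 0 and 9.002 counts. The remaining 7 had at most 2.04 TPM in any library.

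**Figure D3:**
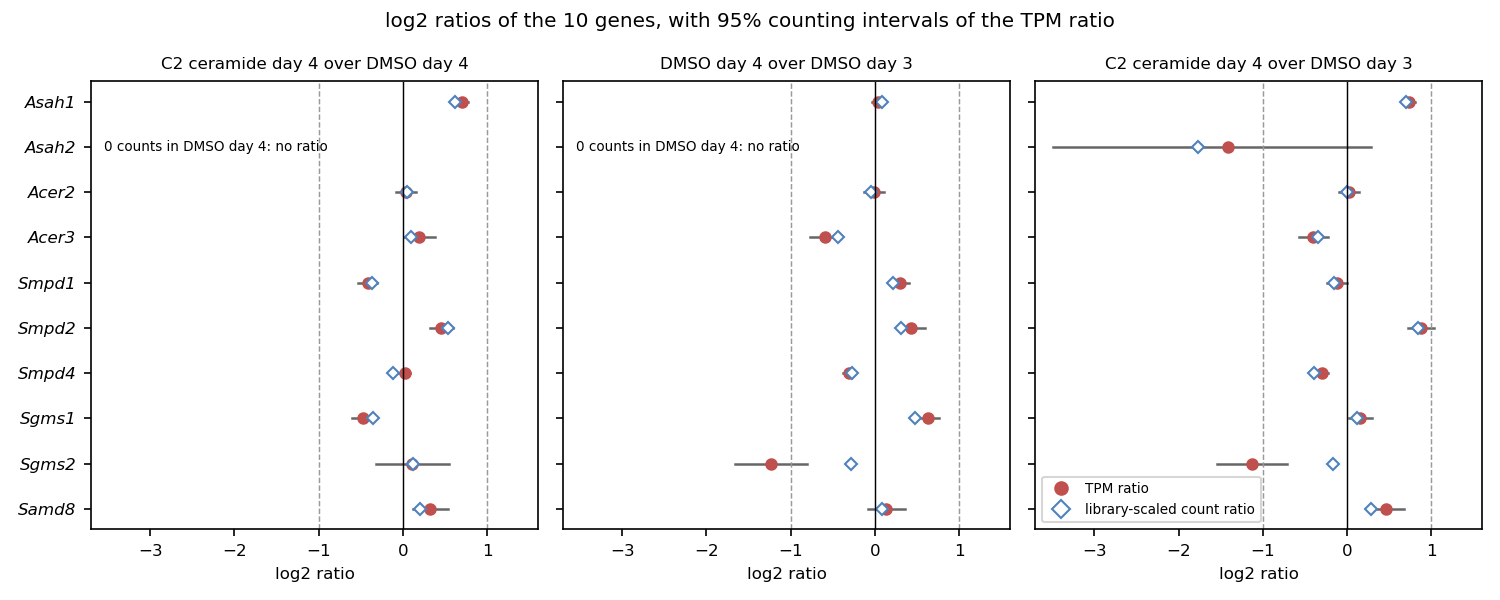
log2 ratios of the 10 genes in the 3 comparisons, as TPM ratios (filled circles, lines are 95% counting intervals) and ratios of library-scaled counts (open diamonds); dashed lines mark 2-fold. The circles of Asah1, Smpd2 and Samd8 lie above 0 and those of Smpd1 and Sgms1 below 0 in C2 ceramide day 4 over DMSO day 4, and the circle and diamond of Sgms2 part in both comparisons with DMSO day 3.

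The synthases had their highest sum on DMSO day 4, and Sgms1 held nearly all of it, 95% with C2 ceramide, 96.6% on DMSO day 4 and 88.6% on DMSO day 3. Sgms1 encodes the Golgi sphingomyelin synthase. The gene (chr19:32122727-32389714, minus strand) had 10.99 TPM with C2 ceramide (965 counts), against 15.3 TPM on DMSO day 4 (1228 counts) and 9.86 TPM on DMSO day 3 (849 counts). The C2 ceramide level was nearer to DMSO day 3 than to DMSO day 4. The log2 ratio was -0.48 (-0.60 to -0.35) in C2 ceramide day 4 over DMSO day 4 and 0.63 (0.51 to 0.76) in DMSO day 4 over DMSO day 3, the largest positive ratio of the 10 genes in the comparison of days. The log2 ratio in C2 ceramide day 4 over DMSO day 3 was 0.16 (0.02 to 0.29). From library-scaled counts these ratios were -0.36, 0.47 and 0.11. Part of the high value on DMSO day 4 came from ENSMUST00000134415.1 and ENSMUST00000141252.1, which are not annotated as coding. They had 0.928 and 0.955 TPM there, from 38.0 and 10.8 counts, and 0 in the other libraries. With coding transcripts alone, DMSO day 4 over DMSO day 3 gave 0.47, close to 0.46 for Smpd2 and below 1.02 for Acer2.

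Sgms1 had 3 coding transcripts above 0 that share 1 coding sequence of 419 residues and start at 3 different bases. The transcript from the internal start (ENSMUST00000151289.8) had 5.69 TPM with C2 ceramide, against 8.18 TPM on DMSO day 4 and 5.87 TPM on DMSO day 3, from 478, 685 and 481 counts. The transcript from the upstream start (ENSMUST00000099514.9) had 4.40, 4.59 and 3.29 TPM in the same order, from 424, 440 and 309 counts. Between C2 ceramide and DMSO day 4 the internal transcript thus differed by more than the upstream one, while the third had at most 0.239 TPM. The internal start lies inside the gene, 177499 bases from the upstream start. Both windows are printed so that the start regions behind the unequal transcripts can be compared, and capitals mark the GC box given above and the sequence CCAAT, each on both strands.
Sgms1 internal start, chr19:32210964-32211263, minus strand: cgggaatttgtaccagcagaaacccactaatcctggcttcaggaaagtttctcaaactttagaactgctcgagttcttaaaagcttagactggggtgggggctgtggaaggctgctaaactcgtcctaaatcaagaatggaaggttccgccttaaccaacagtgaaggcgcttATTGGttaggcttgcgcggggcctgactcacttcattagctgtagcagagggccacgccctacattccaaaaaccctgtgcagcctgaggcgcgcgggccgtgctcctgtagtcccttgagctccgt
Sgms1 upstream start, chr19:32388463-32388762, minus strand: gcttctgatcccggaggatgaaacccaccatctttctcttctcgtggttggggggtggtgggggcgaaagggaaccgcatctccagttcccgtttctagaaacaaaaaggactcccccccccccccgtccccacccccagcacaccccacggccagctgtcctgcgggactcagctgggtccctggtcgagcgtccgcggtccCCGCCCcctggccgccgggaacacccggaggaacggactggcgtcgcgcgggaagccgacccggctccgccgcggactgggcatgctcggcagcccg
The internal window held 1 CCAAT sequence, no GC box, 13 CpG dinucleotides and 53.0% G and C. The upstream window held 1 GC box, no CCAAT sequence, 28 CpG dinucleotides and 69.3% G and C. CCAAT was present in 37.4% of the 32851 windows. Neither window held a TATA box, TATAAA, which 13.6% of all windows had.

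**Figure D4:**
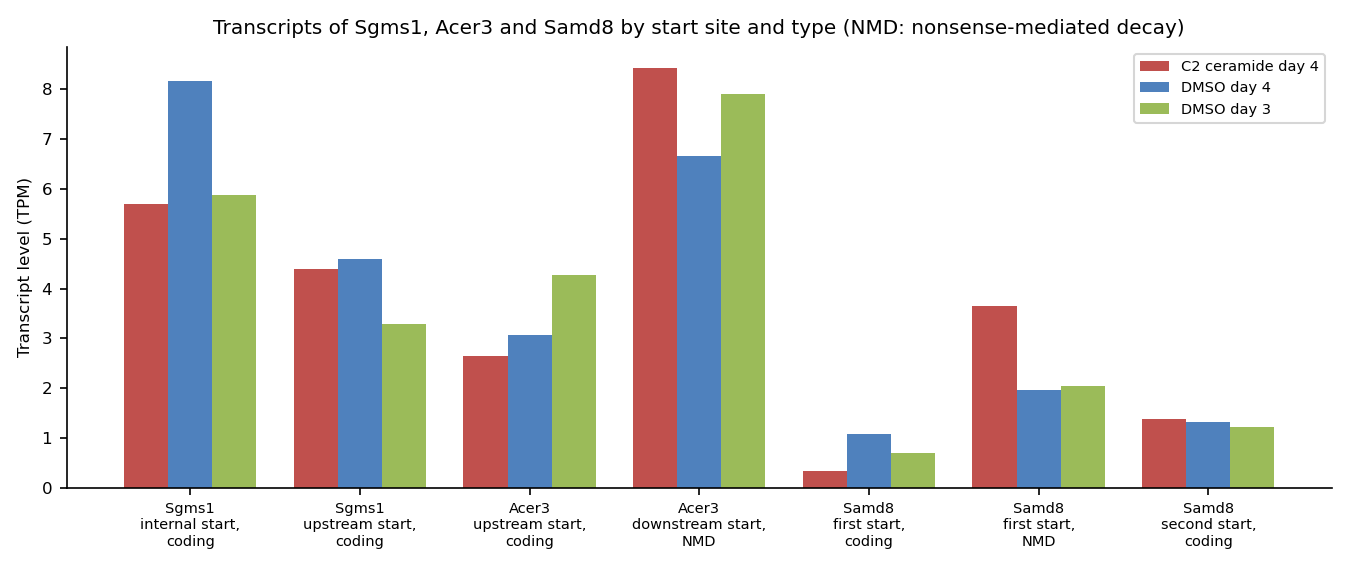
Level (TPM) of 7 transcripts of Sgms1, Acer3 and Samd8, labelled by start site and annotated type, with bars for C2 ceramide day 4, DMSO day 4 and DMSO day 3. The internal Sgms1 transcript stands at 5.69, 8.18 and 5.87 TPM and the upstream one at 4.40, 4.59 and 3.29 TPM, and the decay transcript of Samd8 is highest with C2 ceramide at 3.65 TPM.

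Sgms2 encodes the sphingomyelin synthase of the plasma membrane. The gene lies at chr3:131318985-131491411 on the minus strand and was low throughout, at 0.583 TPM with C2 ceramide (96 counts), 0.540 TPM on DMSO day 4 (88 counts) and 1.27 TPM on DMSO day 3 (103 counts). The counts were close in all 3 libraries, but the TPM on DMSO day 3 was over 2-fold above the others. The log2 TPM ratio was -1.23 (-1.66 to -0.81) in DMSO day 4 over DMSO day 3, and -0.29 (-0.72 to 0.14) from library-scaled counts, whose interval includes 0. On DMSO day 3, 2 counts were assigned to a transcript of 364 bases (ENSMUST00000197057.1), which gave 0.639 TPM. The main transcript (ENSMUST00000090246.4, 365 residues) had 0.583 TPM with C2 ceramide, 0.540 TPM on DMSO day 4 and 0.632 TPM on DMSO day 3. The call of Sgms2 as lower on both day 4 libraries thus rested on 2 counts. C2 ceramide day 4 over DMSO day 4 gave 0.11 (-0.32 to 0.54).

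Samd8 encodes an ER enzyme related to the synthases that makes ceramide phosphoethanolamine rather than sphingomyelin. It lies at chr14:21750531-21798726 on the plus strand and had 5.45 TPM with C2 ceramide (415 counts), 4.35 TPM on DMSO day 4 (358 counts) and 3.97 TPM on DMSO day 3 (325 counts). The log2 ratio was 0.33 (0.12 to 0.53) in C2 ceramide day 4 over DMSO day 4, and 0.20 (-0.003 to 0.41) from library-scaled counts. The difference lay in a transcript annotated for nonsense-mediated decay (ENSMUST00000144061.1), which had 3.65 TPM with C2 ceramide, 1.97 TPM on DMSO day 4 and 2.04 TPM on DMSO day 3. The coding transcripts went the other way and summed to 1.72, 2.38 and 1.93 TPM, a log2 ratio of -0.47. Their estimated counts differed less, at 266, 279 and 245. Of the coding transcripts, the one that encodes 478 residues had 0.337 TPM with C2 ceramide (13.3 counts), 1.07 TPM on DMSO day 4 (41.6 counts) and 0.701 TPM on DMSO day 3 (26.6 counts). It begins close to the decay transcript and ends at the same base, and the split of reads between these transcripts was not tested. The coding transcript of 415 residues was nearly flat, at 1.38, 1.31 and 1.23 TPM. Samd8 and Acer3 were therefore genes whose total and summed coding levels had opposite signs in C2 ceramide day 4 over DMSO day 4. For Acer3 both differences were small.

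The rest of the ceramide pathway was read from a list of 40 other sphingolipid genes, of which 35 passed the filter. In C2 ceramide day 4 over DMSO day 4, 2 of the 35 had a ratio above 2 and 4 a ratio below 0.5, and the list's median log2 ratio was 0.11, beside 9.97% above 2, 12.3% below 0.5 and a median of -0.03 over all genes tested. In DMSO day 4 over DMSO day 3, 4 were higher and 2 lower, with a median of 0.17, beside 12.8%, 9.45% and 0.05 over all genes tested. Most genes of the list lay within 2-fold, as did most of all genes tested, so these counts are no result about the pathway. Of the enzymes that the study targeted beside acid ceramidase, Ugcg, which puts glucose on ceramide, had 20.7 TPM with C2 ceramide, 23.4 TPM on DMSO day 4 and 18.9 TPM on DMSO day 3. Sptlc2, a subunit of the first enzyme of sphingolipid synthesis, had 65.8, 67.8 and 55.5 TPM in the same order. Neither passed 2-fold in any comparison.

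The genes of the pathway past 2-fold with at least 50 counts were few. Ugt8a, which puts galactose on ceramide, had 4.03 TPM with C2 ceramide, 1.87 TPM on DMSO day 4 and 4.54 TPM on DMSO day 3. Its log2 ratio in C2 ceramide day 4 over DMSO day 4 was 1.11 (0.84 to 1.38). Enpp2, autotaxin, which makes lysophosphatidic acid, had 18.7, 8.28 and 46.3 TPM in the same order and a log2 ratio of 1.17 (1.04 to 1.30). Sgpp2, which removes the phosphate from sphingosine-1-phosphate, had 0.249, 0.689 and 0.108 TPM and a log2 ratio of -1.47 (-2.15 to -0.85). Smpd3, a neutral sphingomyelinase that is not among the 10 genes, had 0.526 TPM with C2 ceramide, 0.575 TPM on DMSO day 4 and 1.08 TPM on DMSO day 3. It passed 2-fold only in C2 ceramide day 4 over DMSO day 3, at -1.04 (-1.56 to -0.55). The other 3 genes called lower in C2 ceramide day 4 over DMSO day 4, Sphk1, Smpd5 and Cers3, had at most 20 counts in any library and were named after their values were seen. They reached 10 counts only on DMSO day 4, so the filter kept them in through the library where they were highest. Their calls in both comparisons with DMSO day 4 are no result about the pathway.

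Because acid ceramidase and acid sphingomyelinase are lysosomal, 30 other lysosomal genes were read beside them. In C2 ceramide day 4 over DMSO day 4, 2 of the 30 had a ratio above 2, none had a ratio below 0.5, and the median log2 ratio was 0.17. Over all genes tested, 9.97% had a ratio above 2, 12.3% a ratio below 0.5, and the median was -0.03. The log2 ratio of Asah1, 0.70, was near the top of this list, and that of Smpd1, -0.42, near the bottom. The genes past 2-fold were Tfeb, a transcription factor of lysosomal genes, at 5.73 TPM with C2 ceramide, 1.97 TPM on DMSO day 4 and 2.75 TPM on DMSO day 3, and Manba, the lysosomal beta-mannosidase, at 32.1, 13.6 and 20.9 TPM. Their log2 ratios were 1.54 (1.21 to 1.87) and 1.24 (1.14 to 1.34). The 30 genes summed to 2185 TPM with C2 ceramide, 1745 TPM on DMSO day 4 and 1600 TPM on DMSO day 3. A large part of these sums was Lamp1, at 475, 351 and 324 TPM in the same order, and Ctsl, at 393, 279 and 235 TPM. Both were named after their values were seen. Psap, from the sphingolipid list, encodes the precursor of the saposins, which help lysosomal enzymes reach their lipids, acid ceramidase among them. It had 127 TPM with C2 ceramide, 88.4 TPM on DMSO day 4 and 85.8 TPM on DMSO day 3, with a log2 ratio of 0.52 (0.48 to 0.57) in C2 ceramide day 4 over DMSO day 4 and 0.04 in DMSO day 4 over DMSO day 3. Like Asah1, it was highest with C2 ceramide and close in both DMSO libraries, and it was named after its values were seen. The pattern was not particular to Psap. Hexa, from the lysosomal list, had 124, 81.3 and 80.6 TPM in the same order and was also named after its values were seen. Of the lysosomal list, 10 genes had a ratio below 1 in C2 ceramide day 4 over DMSO day 4.

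**Figure D5:**
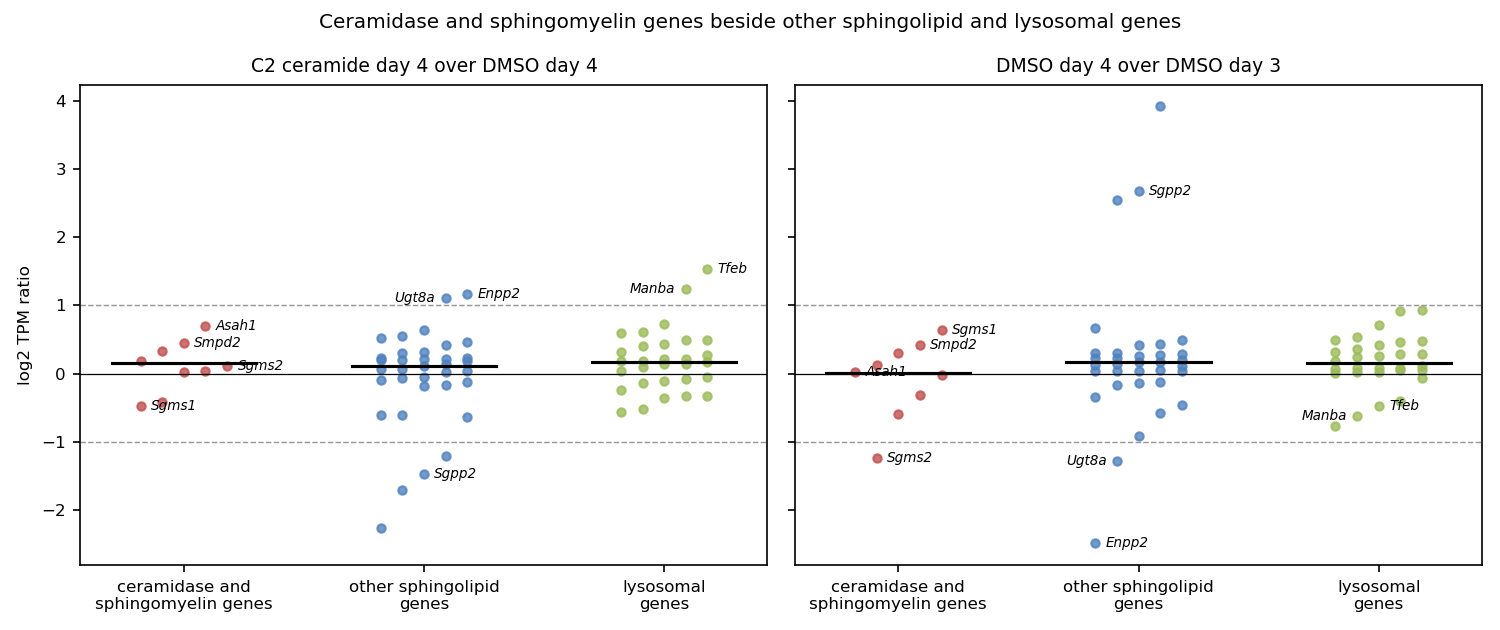
log2 TPM ratio of each gene in C2 ceramide day 4 over DMSO day 4 (left) and DMSO day 4 over DMSO day 3 (right), for the 10 ceramidase and sphingomyelin genes, the 35 other sphingolipid genes tested and 30 lysosomal genes; black lines are medians, dashed lines mark 2-fold, and genes at 0 in a library are not drawn. The medians, 0.15, 0.11 and 0.17 on the left, lie close together. Asah1, at 0.70, is the highest point drawn for the 10 genes, since Asah2, at 0 on DMSO day 4, is counted in the median but not drawn.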

How the data were processed

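RNA from 3 EB libraries, 1 per condition, was made into cDNA with a SMART-Seq kit and sequenced. The authors processed the reads with DRAGEN (named in the submitters' processing notes) on GRCm38 and deposited 1 table of genes and 1 of transcripts. The deposited TPM values are scaled to the same total in every library. The deposited estimated counts are expected counts, not normalized, and were rounded for intervals.

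The analysis used SciPy 1.17.1, pandas 2.3.3 and NumPy 2.4.6 under Python 3.11.15. Ratios of TPM were taken with a TPM of 0 set to 0.001 and genes of at least 10 counts in at least 1 library, and plotted with Matplotlib 3.10.9. A gene was called higher above 2 and lower below 0.5. Intervals are exact conditional (Clopper-Pearson) 95% intervals for counts, shifted to the TPM ratio. Transcript types and lengths came with the deposited transcript values. Residues came from a GENCODE mouse annotation, in which all 61 transcripts above 0 were found (84 were listed for the 10 genes). Promoter windows came from RefSeq and were found for 9 genes. The text names the 10 genes, their transcripts that reached 1 TPM in a library or led the gene (by name, description or, for 7 of Smpd4, as a range), the inhibitor targets, and list genes past 2-fold with at least 50 counts. Psap, Hexa, Lamp1, Ctsl, Otx2, Sphk1, Smpd5, Cers3 and transcripts under 1 TPM that did not lead their gene were named after their values were seen. The 10 genes and the lists were chosen with earlier results of these data known. The alternatives were other pseudocounts, filters, thresholds, coding transcripts alone, counts divided by the library total, TMM factors (edgeR 4.0.16) and DESeq2 1.42.0 size factors, in R 4.3.3. The ratio, the call and the interval were tested on simulated counts of the more abundant genes. The shift to the TPM ratio, the value set for a TPM of 0, the filter and the transcript values were not tested in this way.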

Additional observations from a re-analysis of the deposited data

How the results depend on the processing

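With 1 library per condition nothing shows how far 2 cultures of the same kind differ, and the counting intervals do not cover it. No paired analysis was possible because each condition had 1 library. The number of genes past the threshold depended on the settings. It was 1760 higher and 2172 lower in C2 ceramide day 4 over DMSO day 4, 443 and 617 with 1 TPM added to every value, 3876 and 5143 without a filter on low counts, 587 and 754 with at least 100 counts, and 2903 and 3447 at 1.5-fold. In DMSO day 4 over DMSO day 3 it was 2266 and 1668, with 669 and 281, 4970 and 4003, 854 and 457, and 3603 and 2712 under the same settings. For C2 ceramide day 4 over DMSO day 3 it was 1971 and 1658, with 407 and 257, 4165 and 4234, 668 and 404, and 3221 and 2775. With 1 TPM added, 70.4% of the genes called in DMSO day 4 over DMSO day 3 were higher, against 57.6% without it.

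Of the 10 genes, 1 was higher in C2 ceramide day 4 over DMSO day 4 (Asah2), but 0 with 0.1 TPM added, 0 with 1 TPM added, 0 with at least 100 counts, and 2 at 1.5-fold (Asah1 and Asah2). In DMSO day 4 over DMSO day 3, 0 were higher, but 1 with coding transcripts only (Acer2) and 1 at 1.5-fold (Sgms1). The 2 lower genes became 1 with 0.1 TPM added (Sgms2), 0 with 1 TPM added, 1 with at least 100 counts (Sgms2), 1 with counts divided by the library total, TMM factors or DESeq2 size factors (Asah2), and 3 at 1.5-fold (Acer3, Asah2 and Sgms2). When C2 ceramide day 4 was set over DMSO day 3, 0 were higher, but 2 with coding transcripts only (Acer2 and Smpd2) and 2 at 1.5-fold (Asah1 and Smpd2). The 2 lower genes became 1 with 0.1 TPM added (Sgms2), 0 with 1 TPM added, 1 with at least 100 counts (Sgms2), 1 with each of the 3 count scalings (Asah2), and 1 with coding transcripts only (Sgms2). Among the 9 genes with a ratio in C2 ceramide day 4 over DMSO day 4, the sign of Acer3 and Samd8 differed with coding transcripts only, and that of Smpd4 under the 3 count scalings. That of Samd8 also differed with coding transcripts only in C2 ceramide day 4 over DMSO day 3. Acer2, whose main ratios were close to 0, changed sign in both comparisons with DMSO day 3. In DMSO day 4 over DMSO day 3 this was with coding transcripts only, at a log2 ratio of 1.02. In C2 ceramide day 4 over DMSO day 3 it was under the 3 count scalings. Asah1 kept its sign in C2 ceramide day 4 over DMSO day 4 with coding transcripts only and under the 3 count scalings, at log2 ratios between 0.52 and 0.64. The other alternatives cannot change a sign. The filters and the threshold leave a ratio as it is, and an added TPM only draws it toward 0.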
